A study of Homo sapiens with 9 samples.

Results

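Transcription by RNA polymerase II runs past the end of a gene, and reads that cover the sequence just after a gene's last annotated base mark a downstream-of-gene region, named for the gene it follows (its host). The 549 regions described here are the long ones. They were chosen by a length of 18000 bases or more, a place off chromosome 19, and a host name that does not begin with MIR, SNOR, SCARNA, RNU, LINC, LOC or SNHG or end in -AS plus digits. They made up 549 of the 2541 regions in the authors' deposited table of KO against WT and 539 of the 2396 in the authors' deposited table of addback against KO. The same 539 regions, with the same starts and ends on hg38, stood in both tables. The other 10 (LYG2, RAB3GAP1, DYNC1I2, BTD, NME6, PMS2P4, TRUB2, KATNBL1, GABARAPL2 and CLDN14) had base means of 0.0997 to 0.219 in the authors' deposited table of KO against WT, where the base mean is the mean normalised read count over the libraries compared. The choice used names, chromosomes and lengths, and no fold change.

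The libraries held poly(A)-selected RNA of HEK293, an established line of human embryonic kidney cells, with 3 libraries in each of 3 groups. UBE3D WT cells (WT) are labelled wild type, UBE3D KO cells (KO) had UBE3D removed with CRISPR/Cas9, and UBE3D addback cells (addback) are labelled as cells with UBE3D supplied again. All 9 samples carry the label pooled, and the treatment text of every sample, WT included, names the knockout. The labels give neither the number of KO clones nor the vector of the addback, and they do not tie a group's 3 libraries to separate dishes of cells, so the p-values measure only library-to-library spread, which may be technical.

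The 3′ end of most messenger RNAs is made by the cleavage and polyadenylation complex. Its subunits read a hexamer, most often AATAAA or ATTAAA, a short way before the cut, and the endonuclease CPSF73, the product of CPSF3, makes the cut. The cut exposes the downstream RNA to the exonuclease XRN2, which helps to release the polymerase. Where cleavage or release is late, the polymerase goes on into the sequence after the gene, and long readthrough RNAs of this kind have been described after heat, salt and viral stress. UBE3D encodes a ubiquitin ligase, and the study asked about gene expression and readthrough without it.

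For 296 of the 549 regions (53.9%) a GENCODE v29 transcript ends within 3 bases of the region's start, and the last 30 bases of some of these show the signal that lies upstream of the cut. They are shown because the region begins within 3 bases of their last base, and because these hosts carry results described further on. Capitals mark the AATAAA or ATTAAA nearest the end on the transcript strand, and the coordinates are those of the printed bases on hg38, from GENCODE v29.

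MRPL36 (chromosome 5, 1798386 to 1798415, minus strand): cattttcctATTAAAatagaccttccgaat
CDK1 (chromosome 10, 60794823 to 60794852, plus strand): gctttgggaATTAAActgtttaacaaataa
CNIH3 (chromosome 1, 224740520 to 224740549, plus strand): tgtgctatgtttATTAAAatgcagcgacaa
CNTNAP3 (chromosome 9, 39072767 to 39072796, minus strand): tcaatttATTAAAaaaatagcttaactgaa
WWOX (chromosome 16, 79212638 to 79212667, plus strand): tgcttAATAAAagaacatgcttgaatatca
NSUN5 (chromosome 7, 73302517 to 73302546, minus strand): acaaaAATAAAtttttgttaaaaaacgttt
METTL2B (chromosome 7, 128502895 to 128502924, plus strand): ctcaaaaaaataaaAATAAAaaaaatctta
PLSCR1 (chromosome 3, 146515180 to 146515209, minus strand): tatttgaAATAAAaacttgatttttttgta
C6orf141 (chromosome 6, 49552066 to 49552095, plus strand): gaaagaaaacgagaggagctagggaaagaa
CKMT1A (chromosome 15, 43699193 to 43699222, plus strand): atcctagtaaagactccttgctatgctgca
AMZ2P1 (chromosome 17, 64966550 to 64966579, minus strand): gcttaaaaatataatttgcctactgcaact

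MRPL36, CDK1, CNIH3 and CNTNAP3 have ATTAAA as the hexamer nearest the end. WWOX, NSUN5, METTL2B and PLSCR1 have AATAAA, and neither hexamer stands in the last 50 bases of C6orf141, CKMT1A or AMZ2P1. Over the last 50 bases of all 296 transcripts, searched on the transcript strand only, AATAAA was present in 58.1%, ATTAAA without AATAAA in 16.6% and neither in 25.3%. The shares over the 1405 regions of the whole table with such a transcript were 57.2%, 14.9% and 27.97%, each within 3 percentage points of the share in the long regions. A match is a description of these letters and not of a used site.

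Before the regions, the knocked-out gene checks the labels. UBE3D stood at 13.2, 15.8 and 14.5 CPM in KO 1 to 3, at 19.6, 21.2 and 26.4 in WT 1 to 3 and at 3356, 3317 and 2754 in addback 1 to 3, where CPM stands for library-scaled counts, with scaling factors from genes with little background. UBE3D RNA was present in every KO library, the KO libraries were all below the WT libraries, and the addback libraries lay far above both. The log2 fold was -0.62 (SE 0.13) in KO against WT (edgeR adjusted p = 0.00399) and 7.76 (SE 0.14) in addback against KO (edgeR adjusted p = 3.97e-08). Total counts ran from 23088295 to 37508780 per library. WT and addback libraries carried counts over 93.4% to 95.1% of a set of 607 tissue-restricted genes, and KO libraries over 14.3% to 18.6%. Read at the same rate over all coding sequence, such counts would make up 3.00%, 8.23% and 14.4% of WT 1 to 3, 2.78%, 11.5% and 11.5% of addback 1 to 3, and 0% of KO 1 to 3. The rate is a median over genes, so it is 0 where most of them have no counts. KO 1 to 3 still held 669, 654 and 936 counts over this set, against 12629 to 57181 in the WT and addback libraries. Of the HEK293 markers IRS4, NEFL, NEFM, PAX2, LIN28B, HMGA2 and CDK4, every one was detected, and their summed level was 762 to 880 CPM in KO, 921 to 978 in addback and 1393 to 1473 in WT. Without IRS4, itself a host, the other 6 summed to 604 to 638 CPM in KO, 609 to 630.2 in addback and 585 to 608 in WT. The summed markers of blood, endothelium, fibroblasts, liver, muscle, neurons and breast epithelium were lower in each KO library than in each addback library, the ranges of KO and WT overlapped for neurons (15.9 to 16.9 and 10.6 to 27.7) and fibroblasts (44.3 to 52.5 and 48.9 to 99.7), and 1 marker, of breast epithelium, was at 0 in all KO libraries. The part of these reads in the region folds was not tested, since the tables of regions hold no value per library.

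The long regions were 18000 to 443800 bases long, with a median of 30805, and 59 of them reached 100000 bases. All 549 began within 1 base of the annotated end of a host. In GENCODE v29, all hosts were protein coding for 492 of them. For 29 the hosts were pseudogenes only, 7 followed a lincRNA, 4 an antisense RNA and 8 a host with no match, so a coding-like name did not always mean a coding gene. The 549 regions carried 564 host names, with several names on 11 regions. They lay on 22 chromosomes.

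**Figure D1:**
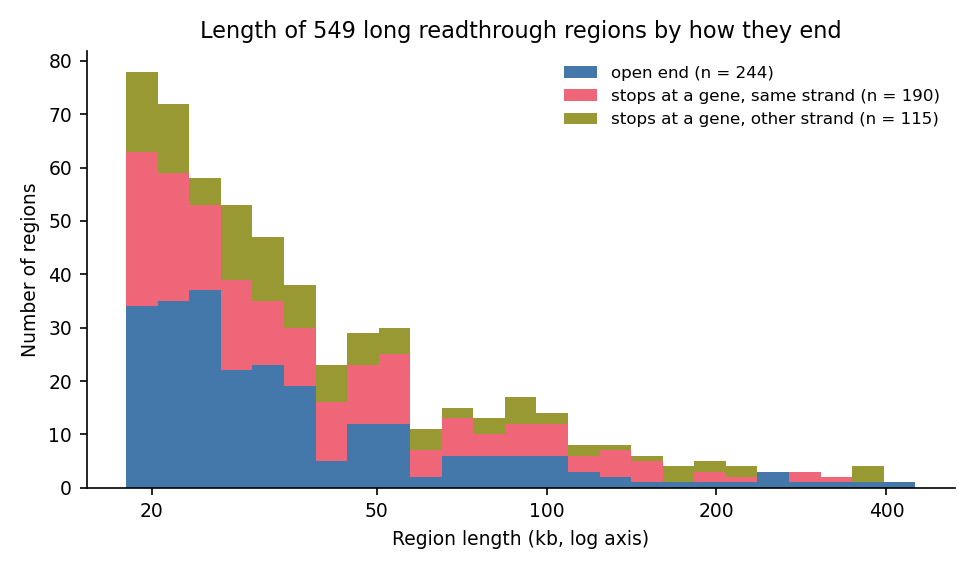
Number of long readthrough regions (vertical axis) by length in kilobases (horizontal log axis), stacked by how the region ends: 244 open ends, 190 ends at a gene on the same strand and 115 ends at a gene on the other strand. Most regions are under 50 kb in all 3 classes, and the tail runs to 443800 bases.

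The regions ended in 3 ways. A next gene on the same strand stopped 190, a gene on the other strand stopped 115, and 244 ended with no gene at the end. All 244 open-ended lengths were multiples of 200 bases and none of the 305 gene-bound lengths was. A length of the open kind is thus known only to that step, and one of the gene-bound kind is set by the gene at its end. That gene need not be the nearest, since some regions, such as those of LSM6 and ZDHHC11, hold coding sequence of another gene. The longest region followed C3orf38 (chr3:88157966-88601765, 443800 bases) and had an open end. NBPF8, a member of the neuroblastoma breakpoint family (chr1:120467845-120850820, 382976 bases), WWOX, an oxidoreductase gene at a common fragile site (chr16:79212668-79593849, 381182 bases), and the proton pump subunit ATP6V0E2 (chr7:149880713-150247213, 366501 bases) ended at a gene on the other strand. The region of CNTNAP3, a contactin-associated membrane protein (chr9:38708368-39072767, 364400 bases), was open. At the limit, the regions of C14orf37 and ST8SIA5 were just inside with 18000 bases each, and those of EML4 (17958 bases) and ATG10 (17925 bases) were just outside. In the authors' deposited table of KO against WT their log2 folds were -0.27, 0.47, -0.46 and -1.52, the last from a base mean of 0.239.

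In the authors' deposited table of KO against WT, the base mean per kilobase had a median of 14.6 over the long regions, and that of IRS4, an insulin receptor substrate highly expressed in HEK293 cells, was 2119 (chrX:108707298-108732497). DYNLL2, a dynein light chain, followed in the authors' deposited table with 340 per kilobase, ANKRD18A with 337, the nuclear pore protein NUP155 with 213 and the casein kinase subunit CSNK2A1 with 208. In the same authors' deposited table the longest regions were thin: 1.14 per kilobase for C3orf38, 0.680 for WWOX, 1.504 for ATP6V0E2, 1.29 for CNTNAP3 and 6.73 for NBPF8. The order per kilobase is therefore not the order of length. At the other end, 17 of the 549 long regions had a base mean under 10 in the authors' deposited table. All 17 ended at a gene on the other strand. Over the whole authors' deposited table, 270 of 2541 regions were under 10, and these too all ended at a gene on the other strand. ADAT1, which edits transfer RNA, and GABARAPL2, an autophagy protein, face each other on chromosome 16, and their regions (chr16:75577881-75598349 and chr16:75577882-75598350) cover the same stretch of 20469 bases each on opposite strands, with base means of 8.28 and 0.114 in the authors' deposited table. How reads on such shared stretches were assigned is not given in the sources used here. For the 539 shared regions, the base means of the authors' deposited table of KO against WT were a median of 1.98 times those of addback against KO, so base means are compared only within a table.

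The comparison of KO with WT asks how RNA over these regions differed when UBE3D was knocked out. By the authors' adjusted p under 0.05, which defines a call here, 333 of the 549 long regions were called, 139 higher in KO and 194 lower (60.7%), in the authors' deposited table. Over all 2541 regions of that table, 49.8% were called, 24.8% higher and 25% lower. The median log2 fold was -0.10 over the long regions and 0 over all regions, and 0.05 over the 1417 shorter regions of hosts named by the same rule, of which 368 were called higher and 277 lower. Log2 folds of at least 1 in size were called for 37 long regions, 18 higher and 19 lower, beside 8.07% of the whole table. So calls were frequent in both directions and most were small.

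The highest folds among long regions with a base mean of at least the median followed HIST1H2AC, a replication-dependent histone gene; DCAF13, a ribosome biogenesis factor; and MRPL36, a mitochondrial ribosomal protein. In the authors' deposited table the HIST1H2AC region (chr6:26124691-26156332) was higher in KO by 2.03 (SE 0.09, adjusted p = 2.38e-107), that of DCAF13 by 1.41 (SE 0.11, adjusted p = 2.07e-37) and that of MRPL36 (chr5:1773386-1798385) by 1.26 (SE 0.11, adjusted p = 3.23e-29). The regions of DYNC1H1, the dynein heavy chain (1.25), LSM6, an RNA-binding ring protein of the spliceosome (1.19), and the histone gene HIST1H2BJ (1.06) came next in the authors' deposited table. The neighbour of MRPL36 on the opposite strand, NDUFS6 of respiratory complex I, has a long region that runs the other way (chr5:1816052-1840051), and in the authors' deposited table it was higher in KO by 1.34 (SE 0.12, adjusted p = 2.76e-28); it was chosen after its value was seen.

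Among called regions with a base mean of at least the median, the lowest folds followed IRS4, the mitochondrial creatine kinase CKMT1A and ANKRD20A4. In the authors' deposited table the IRS4 region had a log2 fold of -2.61 (SE 0.14, adjusted p = 8.43e-78), that of CKMT1A (chr15:43699223-43735949) one of -2.08 (SE 0.53, adjusted p = 0.000337) and that of ANKRD20A4 (chr9:64412692-64463600) one of -1.52 (SE 0.09, adjusted p = 3.94e-58). The pseudogenes BMS1P20 (-1.48) and AMZ2P1 (-1.34) and NSUN5, an RNA methyltransferase gene (-1.25), followed in the authors' deposited table. At lower base means, the regions of HERC2P10 (-2.60) and ZNF883 (-2.25) lay below that of CKMT1A in the authors' deposited table. Many of these hosts belong to duplicated families, in which reads shared with near-identical copies make a value uncertain: ANKRD20A4, CKMT1A, NBPF8, BMS1P20 and AMZ2P1 are of this kind.

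The comparison of addback with KO asks which regions differed when UBE3D was supplied again, and it shares the KO libraries with the first, so the values of both are set side by side without an overlap. Of 539 long regions, 214 were called in the authors' deposited table, 118 higher in addback and 96 lower (39.7%), beside 34.1% of all 2396 regions, 18.6% higher and 15.5% lower. The median log2 fold was 0.03 over the long regions and 0 over the table. Folds in this table are shrunken toward 0 and those of KO against WT are not, so sizes are not compared between them. Log2 folds of at least 1 were called for 6 long regions, all higher in addback, beside 1.42% of the table.

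Among called regions with a base mean of at least the median, the highest fold was that of SP110. Its region (chr2:230068999-230168926), which follows a gene for a nuclear body protein induced by interferon, was higher in addback than in KO by 3.26 (SE 0.21, adjusted p = 1.53e-53) in the authors' deposited table. The regions of CKMT1A (2.01, SE 0.75), IRS4 (0.99, SE 0.14), ZDHHC11, a palmitoyl transferase gene (0.87, SE 0.22), AMZ2P1 (0.86, SE 0.20) and TRIM38, a ubiquitin ligase of innate immunity (0.85, SE 0.10), came next under that limit in the authors' deposited table. At lower base means, the regions of CETP (3.33), HERC2P10 (2.12), LGALS3BP (1.89) and CBY3 (1.79) also passed 1 in the authors' deposited table. Among the lower ones, the regions of the ribosomal protein RPS15A (chr16:18752756-18782955), MRPL36 and DYNC1H1 (chr14:102050799-102080739) had log2 folds of -0.90 (SE 0.10), -0.88 (SE 0.11) and -0.84 (SE 0.11) in the authors' deposited table. Those of the mitotic kinase CDK1 (chr10:60794853-60832052), LSM6 and the kinase anchor AKAP10 were -0.73, -0.61 and -0.60 in the authors' deposited table.

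Side by side, the authors' deposited tables gave the RPS15A region 0.98 (SE 0.09) in KO against WT and -0.90 (SE 0.10) in addback against KO. CDK1 had 0.72 (SE 0.08) and -0.73 (SE 0.09) in the authors' deposited tables. METTL2B, a transfer RNA methyltransferase (chr7:128502925-128641242), had -0.82 (SE 0.06) and 0.49 (SE 0.06) in the authors' deposited tables. The CCT6P3 pseudogene (chr7:65074714-65373800) had -1.07 (SE 0.07) and 0.69 (SE 0.07) in the authors' deposited tables, and C6orf141 (chr6:49552096-49590495) had -0.51 (SE 0.06) and 0.74 (SE 0.07). For each of these 5 regions the folds had opposite signs in the 2 tables; both use the same KO libraries, so the signs are not independent.

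**Figure D2:**
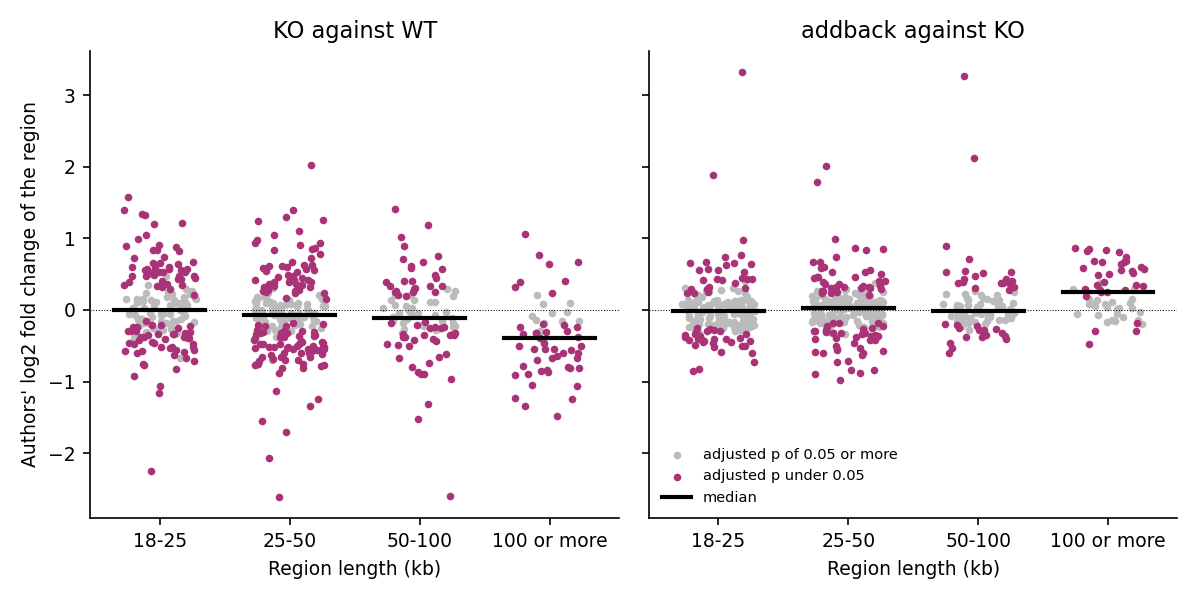
Authors' log2 fold of each long region with a base mean of 10 or more (points, 532 in each panel) by length class in kilobases, for KO against WT (left) and addback against KO (right), with the class median as a bar. From the shortest to the longest class the medians are 0.00, -0.08, -0.11 and -0.40 on the left and -0.01, 0.03, -0.02 and 0.25 on the right.

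The longest class differed in its counts. Of the 59 regions of 100000 bases or more, the authors' deposited table of KO against WT called 8 higher and 39 lower, with a median log2 fold of -0.40, against 131 higher and 155 lower of the 490 shorter long regions, with a median of -0.06. In the authors' deposited table of addback against KO, 29 of the 59 were called higher and 4 lower, with a median of 0.25, against 89 and 92 of 480 with a median of 0.00. All 5 of the longest had negative folds in KO against WT in the authors' deposited table: -0.85 for C3orf38, -1.25 for NBPF8, -0.83 for WWOX, -0.50 for ATP6V0E2 and -1.05 for CNTNAP3, each called. Their folds in addback against KO were 0.56, 0.84, 0.54, 0.52 and 0.69 in the authors' deposited table. Some long regions hold annotated coding sequence of another gene, and those of C3orf38, NBPF8, WWOX, BMS1P20 and ZDHHC11 are among them. Without any region of this kind, 52 of the 59 remained. Of these 52, the authors' deposited tables called 8 higher and 32 lower in KO against WT and 23 higher and 4 lower in addback against KO. The WT and addback libraries were also those with counts over tissue-restricted genes, and the part of such reads in the folds of long, thin regions was not tested.

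Regions with coding sequence of another gene inside (29) had a median log2 fold of -0.50 in the authors' deposited table of KO against WT, with 3 called higher and 20 lower. The 29 regions of pseudogene hosts had a median of -0.51 in the authors' deposited table, with 3 called higher and 19 lower. Of 28 pseudogene regions in the authors' deposited table of addback against KO, 18 were called higher and 4 lower. Over all regions of the authors' deposited tables, 24.8% were called higher and 25% lower in KO against WT. The shares in addback against KO were 18.6% and 15.5%. The 32 regions of zinc finger hosts, a family of transcription factors, split into 2 called higher and 17 lower in the authors' deposited table of KO against WT, beside 139 and 194 over all long regions, and into 9 and 2 in addback against KO. ZNF883 had the lowest of these folds, -2.25 (SE 0.19), and ZNF195 the highest, 0.77 (SE 0.12), in the authors' deposited table. Small groups, formed by the start of a host name alone, were mixed in the authors' deposited table. Among 7 regions with a host name that starts with EIF, RPL or RPS, 3 were called higher and 4 lower in KO. RPS6KA5 and RPS10P7 entered this group by name only. Among 10 regions with ubiquitin-related host names, RNF216P1 included, the counts were 3 and 6.

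By the way a region ended, the authors' deposited table of KO against WT called 76 higher and 76 lower of 244 open long regions, beside 340 and 286 of 1167 open regions of any length and host. Of 190 long regions that stopped at a gene on the same strand it called 44 and 75, beside 221 and 262 of 829, and of 115 that stopped at a gene on the other strand 19 and 43, beside 70 and 86 of 545. For addback against KO the authors' deposited table called 40 and 60 of 244 (198 and 202 of 1167 in the whole table), 52 and 26 of 190 (190 and 132 of 829), and 26 and 10 of 105 (57 and 38 of 400). Ranked by base mean per kilobase, the 137 thinnest regions had 29 called higher and 38 lower in the authors' deposited table of KO against WT, and the 138 densest had 34 and 62. Differences between these classes were not tested.

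**Figure D3:**
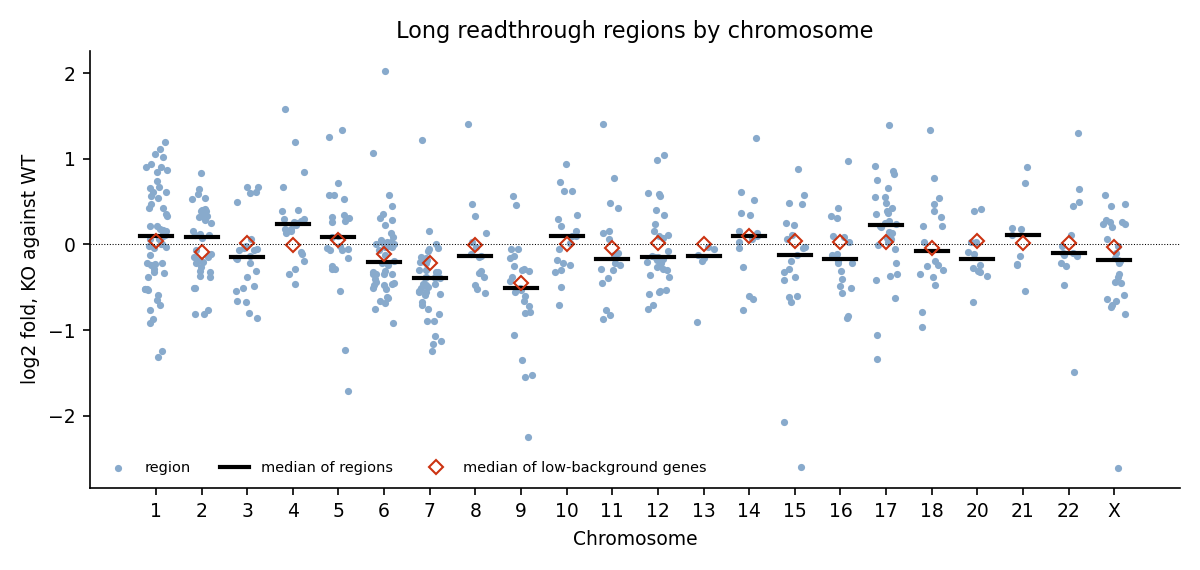
Log2 fold of KO against WT for each long region with a base mean of 10 or more (points, authors' values) by chromosome, with the median of the regions (bar) and the edgeR median of all low-background genes on that chromosome (open diamond). The lowest region medians are on chromosome 9 (-0.51) and chromosome 7 (-0.39), where the gene medians are also lowest (-0.45 and -0.21).

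Chromosomes 7 and 9 had the lowest medians. On chromosome 7 the authors' deposited table of KO against WT called 1 of 44 long regions higher and 26 lower, with a median log2 fold of -0.43, and on chromosome 9 it called 2 of 26 higher and 19 lower, with a median of -0.47. On chromosome 17 it called 17 of 32 higher and 7 lower, with a median of 0.22 in the authors' deposited table. On chromosome 17 the 546 low-background genes had a median of 0.03, with 172 called higher and 109 lower by edgeR. Of 310 low-background genes on chromosome 9, edgeR called 2 higher and 287 lower in KO against WT, with a median of -0.45, and of 366 on chromosome 7 it called 13 higher and 212 lower, with a median of -0.21. All 11 low-background hosts of chromosome 9 were lower in KO, with a median of -0.42. In addback against KO the gene medians on chromosomes 9 and 7 were 0.03 and 0.02, and in addback against WT they were -0.41 and -0.21; the part of this chromosome-wide difference in the region folds was not tested. Without chromosomes 7 and 9, the authors' deposited table of KO against WT called 136 higher and 149 lower of 479 long regions.

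**Figure D4:**
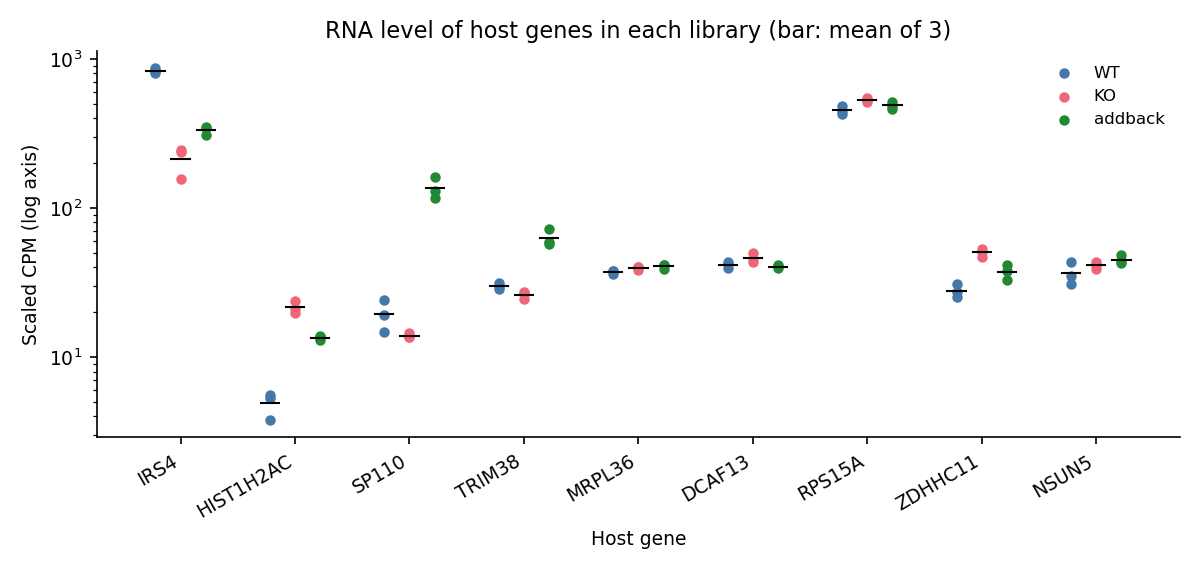
Scaled CPM (log axis) of 9 host genes in each WT, KO and addback library (points, 3 per group, bar at the mean). HIST1H2AC separates all 3 groups, SP110 and TRIM38 are high in addback only, and every library of MRPL36 and DCAF13 lies between 35.9 and 49.6.

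The hosts themselves were measured in the count table, where RNA of fewer cells and less RNA per cell cannot be told apart. HIST1H2AC stood at 3.81, 5.54 and 5.32 CPM in WT 1 to 3, at 23.7, 19.7 and 21.2 in KO 1 to 3 and at 13.7, 13.0 and 13.9 in addback 1 to 3. The 3 groups did not overlap. Its log2 fold was 2.14 (SE 0.17) in KO against WT (edgeR adjusted p = 0.000131) and -0.67 (SE 0.16) in addback against KO (edgeR adjusted p = 0.00803), beside 2.03 and -0.36 for its region in the authors' deposited tables. Replication-dependent histone messages normally end in a stem-loop and carry no poly(A) tail, and these libraries were poly(A)-selected.

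IRS4 stood at 865, 803 and 834 CPM in WT, 237, 157 and 244 in KO and 347, 307 and 346 in addback. The groups did not overlap, and KO 2 was the lowest library. Its log2 fold of KO against WT was -1.97 (SE 0.15, edgeR adjusted p = 0.000101), beside -2.61 for the region in the authors' deposited table. SP110 was at 14.8, 19.2 and 24.1 CPM in WT, 13.7, 13.7 and 14.4 in KO and 131, 117 and 162 in addback. All 3 addback libraries lay above every other library, and the log2 fold of addback against KO was 3.29 (SE 0.18, edgeR adjusted p = 2.01e-05), beside 3.26 for the region in the authors' deposited table.

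Other hosts that were highest in addback were PLSCR1, a phospholipid scramblase, PML, the core of nuclear bodies, LGALS3BP, a secreted glycoprotein, and TRIM38; like SP110, these genes are known to respond to interferon. PLSCR1 was at 116, 100 and 130 CPM in addback 1 to 3 against 20.01, 19.3 and 19.5 in KO, and its log2 fold was 2.55 (SE 0.17, edgeR adjusted p = 7.62e-05). PML was at 201, 167 and 211 CPM in addback 1 to 3 against 50.2, 47.9 and 52.1 in KO, a log2 fold of 1.95 (SE 0.15, edgeR adjusted p = 0.00016). In both the addback libraries lay above all KO libraries. Their regions had log2 folds of 0.98 and 0.77 in the authors' deposited table of addback against KO, that of LGALS3BP 1.89 and that of TRIM38 0.85, beside host folds of 1.43 for LGALS3BP and 1.27 for TRIM38. In KO against WT the host folds were -0.23 for PLSCR1, -0.08 for PML, -0.14 for LGALS3BP and -0.20 for TRIM38. None of these was called by edgeR. In addback against WT the highest called low-background hosts were SP110, PLSCR1, PML, HIST1H2AC and LGALS3BP. The interferon-responsive hosts were singled out after their values were seen, and no list of such genes was tested.

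The regions of MRPL36, DCAF13, DYNC1H1 and LSM6 differed more than their hosts. MRPL36 was at 37.8, 35.9 and 37.5 CPM in WT, 40.3, 40.4 and 38.3 in KO and 41.3, 41.3 and 39.3 in addback, and its log2 fold was 0.10 (SE 0.05, edgeR adjusted p = 0.116) in KO against WT. DYNC1H1 was at 763, 786 and 742 CPM in WT and 793, 799 and 806 in KO, with a log2 fold of 0.06 (SE 0.04, edgeR adjusted p = 0.173). KO lay just above WT for both genes by a small margin, while the authors' deposited table gave 1.26 and 1.25 for the regions. LSM6 had a host fold of 0.02 (SE 0.12) and DCAF13 one of 0.15 (SE 0.06), neither past the edgeR test (adjusted p of 0.870 and 0.0667), beside region folds of 1.19 and 1.41 in the authors' deposited table. The LSM6 region holds coding sequence of another gene on the same strand, and what that gene's RNA adds to its fold was not tested.

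ZDHHC11 and NSUN5 went the other way. ZDHHC11 was at 27.3, 30.8 and 25.4 CPM in WT, 53.4, 50.5 and 47.1 in KO and 32.7, 37.8 and 41.4 in addback. KO was highest with no overlap, and the host fold was 0.85 (SE 0.10, edgeR adjusted p = 0.00074). The ZDHHC11 region (chr5:693395-795605) had -1.23 (SE 0.24) in the authors' deposited table of KO against WT. This region holds coding sequence of another gene on the same strand, and the part of that gene's RNA in the fold was not tested. NSUN5 was at 35.2, 43.2 and 31.1 CPM in WT and 41.4, 43.4 and 39.2 in KO; the groups overlapped, the host fold was 0.18 (SE 0.11, edgeR adjusted p = 0.197), and the region (chr7:73265317-73302516) had -1.25 (SE 0.11) in the authors' deposited table. The 2 scales differ in their normalisation, so the gap between a region and its host was not tested, and the pairs in this paragraph and the one before were chosen for their gap. Both hosts have close copies in the genome, which makes the assignment of reads uncertain.

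**Figure D5:**
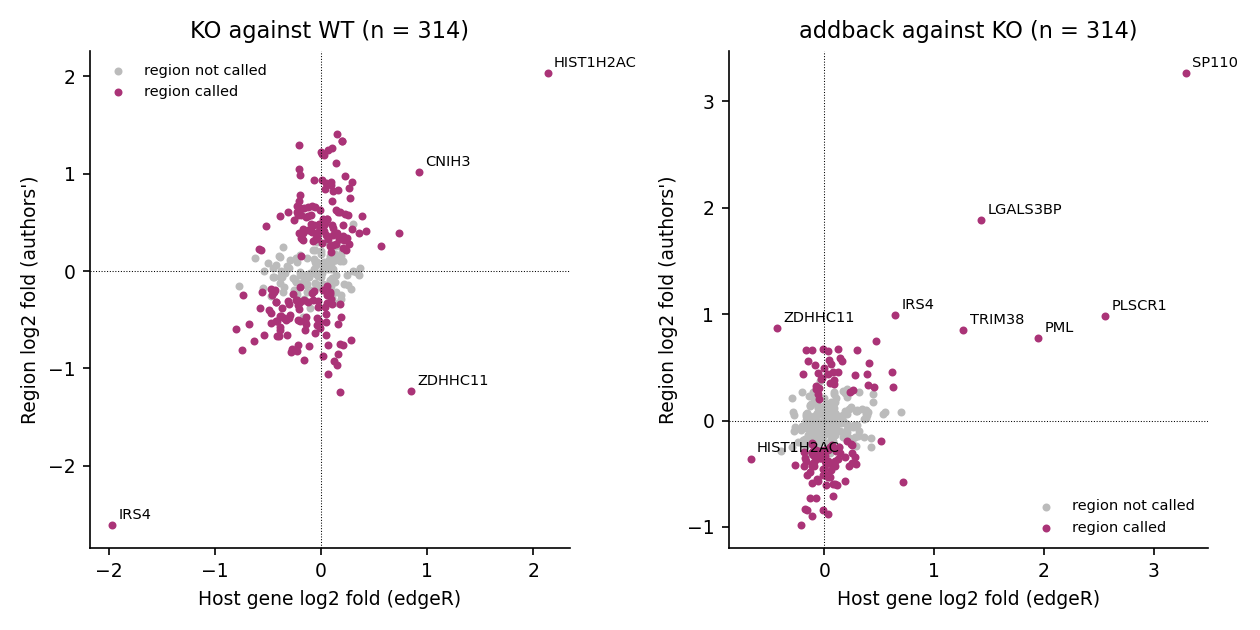
Log2 fold of each long region (authors' values, vertical axis) against that of its host gene (edgeR, horizontal axis) for 314 regions with 1 low-background host and a base mean of 10 or more, in KO against WT (left) and addback against KO (right). Most hosts lie within 0.5 of 0 while regions spread over more than 1 in both directions, and IRS4, HIST1H2AC and SP110 lie far out on both axes.

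Across the 314 regions with 1 low-background host and a base mean of 10 or more, region and host folds had a Pearson correlation of 0.39 and a Spearman correlation of 0.30 in KO against WT, and 0.54 and 0.22 in addback against KO. These are across regions, and both axes come from the same libraries. Of the 106 regions of such hosts called higher in KO in the authors' deposited table, edgeR called the host higher for 32, lower for 14 and neither for 60. Of the 92 called lower in the authors' deposited table, the host was called higher for 6, lower for 45 and neither for 41. For addback against KO, 45 regions were called higher in the authors' deposited table, with the host higher for 16, lower for 4 and neither for 25, and 77 lower, with the host higher for 8, lower for 12 and neither for 57. A host that was not called was the most frequent case for the regions higher in KO and for both directions in addback against KO. Over all 7881 low-background genes, edgeR called 49.6% in KO against WT and 37.6% in addback against KO, so an uncalled gene was frequent there too.

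Of the 564 hosts, 557 passed the filter on low counts and 326 of them were low-background genes. These are genes with an estimated background of at most 10% of their mean CPM and coding sequence of at least 10% of exon length. Of the 326, edgeR called 60 higher and 106 lower in KO against WT, beside 49.6% of all 7881 low-background genes, 23.7% higher and 25.9% lower, and the medians were -0.05 and -0.02. It called 66 higher and 50 lower in addback against KO, beside 37.6%, 19.2% higher and 18.4% lower, and in addback against WT 29 and 37, beside 22.1%, 10.8% higher and 11.3% lower. Over all 557 hosts the counts were 66 higher and 211 lower in KO against WT, beside 62% of all tested genes (9.78% higher and 52.2% lower). They were 153 and 54 in addback against KO (57% of all tested genes, 49.7% higher and 7.24% lower) and 34 and 41 in addback against WT (9.23%, 4.72% higher and 4.51% lower). Left-out libraries moved some of these counts: without KO replicate 2 they were 91 and 35 in addback against KO, without addback replicate 3 they were 99 and 35, and without addback replicate 2 they were 101 higher in addback against KO and 19 and 23 in addback against WT, where 21 were higher without addback replicate 1. The splits with KO rested on the scaling: with TMM factors from all tested genes, which moved the median of all genes by 0.34 and -0.32, 201 hosts were higher and 61 lower in KO against WT, and 55 higher and 197 lower in addback against KO.

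Beyond HIST1H2AC, the hosts highest in KO against WT were CNIH3, an AMPA receptor auxiliary protein (0.92, SE 0.08, edgeR adjusted p = 0.000174), ZDHHC11, GSDMB, a gasdermin (0.74, SE 0.10), and NGRN, a mitochondrial ribosome assembly factor (0.56, SE 0.05). CNIH3 was at 15.0, 15.8 and 17.6 CPM in WT, 32.7, 30.1 and 29.2 in KO and 29.7, 29.8 and 29.04 in addback, so KO and addback overlapped and both lay above WT. Its region (chr1:224740548-224796147) had 1.02 (SE 0.11) in KO against WT and -0.10 (SE 0.11) in addback against KO in the authors' deposited tables. After IRS4, the lowest hosts were the neural transcription factor POU3F2 (-1.17, SE 0.12), PBDC1 (-0.80, SE 0.09), the semaphorin SEMA4F (-0.77, SE 0.08) and ZNF514 (-0.74, SE 0.08). POU3F2 was at 73.5, 75.6 and 72.9 CPM in WT, 33.3, 27.96 and 37.1 in KO and 79.1, 62.6 and 83.3 in addback, with KO below both. Its region held almost no reads, with a base mean of 1.11 in the authors' deposited table. In addback against KO the lowest hosts after HIST1H2AC and ZDHHC11 were the transcription factor TFAP2A (-0.39), RBM41 (-0.29) and GSDMB (-0.29). In addback against WT, KLHL9 (-0.54), PBDC1 (-0.46), MELK (-0.45) and TMEM261 were among the lowest after IRS4 (-1.32), and KLHL9, MELK and TMEM261 lie on chromosome 9.

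Of the next genes on the same strand that start within 10000 bases of a region's end, 227 of 237 were tested, and edgeR called 26 higher and 95 lower in KO against WT and 101 higher and 16 lower in addback against KO, beside 9.78% and 52.2%, and 49.7% and 7.24%, of all tested genes. Of the 99 that were low-background genes, 20 were higher and 23 lower in KO against WT and 26 higher and 14 lower in addback against KO, beside 23.7% and 25.9%, and 19.2% and 18.4%, of all low-background genes. The largest changes were in genes that are nearly silent in KO. LOXHD1, a gene of hair cells that follows the ST8SIA5 region, was at 0.0370, 0.146 and 0.0518 CPM in KO 1 to 3 and at 7.99, 32.7 and 26.6 in WT 1 to 3, and TEK, an endothelial receptor after the IFT74 region, was at 0.111, 0.109 and 0.130 in KO and 4.65, 9.62 and 18.8 in WT. Both were higher in the libraries with more counts over tissue-restricted genes. Among genes with little background, ADI1, a methionine salvage enzyme that starts where the RNASEH1 region ends, was at 90.5, 102 and 94.0 CPM in KO against 72.1, 69.1 and 67.6 in WT. Its log2 fold was 0.45 (SE 0.05, edgeR adjusted p = 0.0006) in KO against WT and -0.34 (SE 0.05, edgeR adjusted p = 0.00212) in addback against KO, with no overlap between KO and the other groups. LINC00622 after the ZNF697 region (2.31, SE 0.53), LOC101927237 after the CENPC region (1.88, SE 0.51) and LINC01341 after the SCCPDH region (1.70, SE 0.41) had the highest folds of KO against WT, all from mean levels of 0.538 to 2.63 CPM in KO.

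The genes of the cleavage and termination machinery were read from the same count table. CPSF3 stood at 121, 118 and 118 CPM in KO, 104, 105 and 113 in WT and 110, 111 and 113 in addback, with every KO library above every WT and addback library. Its log2 fold was 0.15 (SE 0.04, edgeR adjusted p = 0.00911) in KO against WT and -0.10 (SE 0.04, edgeR adjusted p = 0.0572) in addback against KO. Of 21 genes of the cleavage and polyadenylation complexes, 11 were higher and 3 lower in KO against WT, with a median of 0.14, and 2 were higher and 10 lower in addback against KO, with a median of -0.10. The shares over all low-background genes were 23.7% higher and 25.9% lower, and 19.2% and 18.4%. The 3 lower ones in KO were CPSF1, CPSF4 and the poly(A) polymerase PAPOLG (-0.34, SE 0.10). The nuclear poly(A)-binding protein PABPN1 (0.43, SE 0.08) and PCF11, which links cleavage to termination (0.34, SE 0.07), were the highest.

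Of 24 tested genes of termination, 9 were higher and 7 lower in KO against WT and 4 higher and 8 lower in addback against KO, beside 49.6% and 37.6% of all low-background genes called in either direction. XRN2, the exonuclease of termination, had a log2 fold of 0.02 (SE 0.05, edgeR adjusted p = 0.734) in KO against WT. The elongation factors SUPT4H1 (0.50, SE 0.06), SUPT5H (0.39, SE 0.05) and SUPT6H (0.32, SE 0.04) and the polymerase-binding RPRD1A (0.34, SE 0.03) were higher in KO, as were PPP1R10 (0.32) and PPP1CB (0.31) of a phosphatase that acts on termination. CDK9, the kinase that releases paused polymerase, was lower: 31.9, 32.0 and 34.8 CPM in KO, 61.1, 63.2 and 54.1 in WT and 42.2, 45.6 and 45.1 in addback. The 3 groups of CDK9 did not overlap, and its log2 fold was -0.85 (SE 0.07, edgeR adjusted p = 0.000143) in KO against WT and 0.43 (SE 0.07, edgeR adjusted p = 0.00228) in addback against KO; CDK9 lies on chromosome 9. CDK13 (-0.32, SE 0.07) and TTF2 (-0.27, SE 0.04) were lower in KO, and CDK13 is the host of a long region with a base mean of 1.70 in the authors' deposited table. With TMM factors from all tested genes, 33 of the 45 tested genes of both lists were higher and 1 lower in KO against WT, and 0 higher and 33 lower in addback against KO, so these counts rest on the scaling.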

How the data were processed

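Poly(A) RNA of 9 HEK293 libraries was measured. The authors deposited raw counts per gene and library with gene lengths in bases, and region tables with base means (a signal), log2 folds with standard errors, test statistics (a score), p-values and region lengths. Per the submitters' processing notes, cutadapt 1.8.1, STAR 2.5.2b and DESeq2 were used on hg38, with no role stated; for the counting, the region finder and the authors' scaling, the program was not given in the sources used here. KO.U columns were read as addback. Deposited region starts were raised by 1. In the KO against WT table p equals that of fold over its standard error in 100% of regions, and in 3.84% in the other, whose folds are shrunken. How a region ended, its distance from the host and its neighbours were read from the gene coordinates deposited with the counts. Host types, coding sequence and transcript ends came from GENCODE v29.

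Counts were fitted with edgeR 4.0.16 (R 4.3.3): filterByExpr kept 21994 of 26485 genes, 1 quasi-likelihood fit over 9 libraries gave the contrasts, p-values were adjusted by Benjamini-Hochberg over all tested genes, and a call is an adjusted p under 0.05. TMM factors came from 7881 low-background genes (estimated background at most 10% of mean CPM, from counts per kilobase of coding sequence over 607 tissue-restricted genes), and CPM use them. DESeq2 1.42.0 and other scalings, filters and omissions were alternatives. Counts were also simulated for KO against WT (21732 genes tested), with the same set dispersion for every gene in every group. On these the fit called 40 of 100 genes changed by a log2 fold of 0.5 and 92 of 100 changed by 1. It also called 4 unchanged genes. Neither the recovery nor the rate of such calls was tested in the real libraries. Their spread between replicates differed between groups, and their estimated background was 0% in KO and 3.00% to 14.4% in WT. Over all tested genes, same-number libraries correlated by -0.04 to 0.02 in residuals in comparisons with KO, and by 0.91, 0.61 and 0.74 between addback and WT. Over low-background genes the values were 0.0017 to 0.18, and 0.59, 0.31 and 0.64. The numbers may thus pair the addback and WT libraries. Background also differed with the number in both groups, and its part was not tested. The printed values are from the fit without the replicate number as a block, and a fit with it was an alternative. Replicates differed by more than counting noise (the chi-square ratio to its degrees of freedom ran from 1.95 to 42.7), so none was a copy of another. Counts limit precision, and 3 libraries per group cannot give an exact permutation p under 0.1.

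Members and lists were chosen with earlier results of these data known. Regions are named by the 6 highest and 6 lowest called folds at or above the median base mean, the 5 longest, the 6 of highest base mean per kilobase, the 8 called in both tables with the lowest larger adjusted p, and 2 each side of the length limit. Genes are named as hosts of these, as the 5 highest and 5 lowest called low-background hosts and the 3 highest and 3 lowest called neighbours per contrast, and as listed genes called with a fold of at least 0.3. Sequence past the region starts was not analysed here. No sample column went unused (0).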

Additional observations from a re-analysis of the deposited data

How the results depend on the processing

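The region calls rest on the authors' tests. A stricter adjusted p of 0.01, limits of 15000 or 24000 bases, and only regions with 1 host name kept every count of called regions within 1.5 times, as did, chosen after seeing the data, leaving out regions with a base mean under 10, with coding sequence or on chromosomes 7 and 9. With a log2 fold of at least 1, the calls were 18 higher and 19 lower in KO against WT, and 6 higher and 0 lower in addback against KO.

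Counts of host genes moved with the scaling. In KO against WT they were 184 higher and 100 lower with DESeq2, 201 and 61 with TMM factors from all genes, and 128 higher with upper quartile factors; with the background subtracted 139 were lower. In addback against KO they were 70 and 213 with DESeq2, 55 and 197 with TMM from all genes, 78 and 31 with the background subtracted, and 92 and 128 with upper quartile factors. In addback against WT, TMM from all genes gave 11 and 5. The cleavage and termination genes were 32 higher and 1 lower in KO against WT with DESeq2, 33 and 1 with TMM from all genes, and 5 lower with upper quartile factors. In addback against KO they were 0 and 38, 0 and 33, and with the background subtracted 3 and 11; upper quartile factors gave 1 higher. Neighbours in KO against WT were 65 higher with DESeq2, 70 and 59 with TMM from all genes, 42 higher with upper quartile factors, 46 lower with the background subtracted, and 44 and 145 within 50000 bases. In addback against KO, 56 neighbours were lower with DESeq2, 65 higher and 54 lower with TMM from all genes, 38 and 10 with the background subtracted, and 32 lower with upper quartile factors. The cause was not tested.

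CPSF3 in addback against KO passed the test with DESeq2 (-0.37), TMM from all genes (-0.41) and upper quartile factors (-0.23). UBE3D in KO against WT did not with TMM from all genes (-0.28). Signs turned for some genes. With TMM from all genes, the KO against WT folds became 0.11 for ATP6V0E2, 0.23 for BMS1P20, 0.0032 for C6orf141, 0.018 for CDK13, 0.11 for METTL2B, 0.021 for NBPF8 and 0.063 for TTF2, and the addback against KO folds became -0.16 for BMS1P20, -0.032 for OGFRL1 and -0.25 for PAPOLG. With DESeq2, they became 0.027 for ATP6V0E2 and 0.024 for METTL2B in KO against WT, and -0.19 for AKAP10, -0.12 for BMS1P20, -0.24 for MRPL36 and -0.21 for PAPOLG in addback against KO. With the background subtracted, ANKRD20A4 had 0.30 and -1.70, and CNTNAP3 had -0.34 in addback against KO.

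Leaving out 1 library of the groups compared at a time gave 91 to 167 hosts higher and 35 to 61 lower in addback against KO, and 19 to 35 higher and 23 to 38 lower in addback against WT. The fit pools all 9 libraries, and without WT replicate 1 or 3 there were 175 or 197 hosts higher in addback against KO. The listed genes were 2 to 4 higher and 11 to 17 lower in addback against KO, and the neighbours 10 to 16 lower. The 11 came from leaving out KO replicate 1, KO replicate 2 or addback replicate 2, and the 10 from leaving out KO replicate 1, KO replicate 3 or addback replicate 2.

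With the replicate number as a block, 44 hosts were higher and 53 lower in addback against WT, where the numbers may pair the libraries, against 34 and 41 without it. In the comparisons with KO, where libraries share only a number, the block gave 76 and 239 in KO against WT and 190 and 63 in addback against KO. No count of hosts, neighbours or listed genes moved by over 1.5 times under the block.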
